A study of Mus musculus with 6 samples.

Results

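The 49 transcription factors described here are genes known for patterning the limb and body wall, the heart and vessels, the somites and skeleton, the kidney and gonad, or the endoderm. They were chosen by name, with earlier results of these data known, so their shares beside those of all symbols are descriptions and no test. They come from the GATA, SOX, forkhead, T-box, paired box, homeobox, basic helix-loop-helix, nuclear receptor and zinc finger families. All 49 were found among the 23377 gene symbols of the count table, and each is accounted for whether or not it passed a filter on low counts. In embryos such factors are switched on in restricted places, and in other cells Polycomb complexes keep many of them silent. Polycomb repressive complex 1 (PRC1) does part of this by attaching ubiquitin to histone H2A, and either of its enzymes, Ring1a or Ring1b, can carry out that step. A hair follicle stem cell is an epithelial cell of ectodermal origin, so most of these factors belong to other germ layers or to the mesenchyme next to it.

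RNA-seq was made from FACS-sorted hair follicle stem cells of C57BL/6 mice of the genotypes Ring1a/b-/- (knockout of both genes, RingKO here, 2 libraries) and WT (wild type, 2 libraries). Each library came from 3000 cells and was prepared by SMART-seq2, which copies polyadenylated RNA along its full length and amplifies it by PCR. The Cre driver, the agent and time of deletion, the age of the mice and whether libraries came from separate animals are not stated for these RNA libraries. P-values therefore measure the spread between these libraries, which may be technical. The comparison asks how the levels of these factors differ between RingKO and WT cells. Whether PRC1 binds them in these cells was not examined.

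Total counts were 4844381 and 7740945 in the RingKO libraries and 2785843 and 3056593 in the WT libraries, so the RingKO pair was deeper. Levels are given as CPM (counts per 1000000 of a library's total, after scaling of that total by the TMM method), and 1 count was worth 0.201 and 0.124 CPM in the RingKO libraries and 0.378 and 0.332 CPM in the WT libraries. The exons deleted are not stated, so counts over whole genes do not check the genotype. The Ring1a gene, Ring1, was at 15.5 and 18.3 CPM in RingKO cells and 31.8 and 29.2 CPM in WT cells (edgeR adjusted p = 0.551), and Rnf2, which encodes Ring1b, at 150 and 152 CPM in RingKO cells and 144 and 87.4 CPM in WT cells (edgeR adjusted p = 0.532). Epithelial identity was checked on 7 keratinocyte markers, among them Krt5 and Krt14, whose summed level was 1679 and 1553 CPM in RingKO cells and 1896 and 1808 CPM in WT cells. The sum over 9 follicle stem cell markers, among them Lgr5 and Sox9, was 1357 and 1146 CPM in RingKO cells and 1108 and 1208 CPM in WT cells. Of its 8 tested members 0 passed adjustment, while at an unadjusted edgeR p under 0.05 Lgr5, Sox9 and Nfatc1 were higher and Krt15 was lower in RingKO cells. Of all genes tested 8.47% were higher and 8.16% lower at that p. Nfatc1, a regulator of stem cell quiescence, had 38.6 and 33.8 CPM in RingKO cells and 0 and 2.33 CPM in WT cells. Cd34, a bulge marker on the same list, went the other way. It had 15.3 and 2.60 CPM in RingKO cells and 24.2 and 20.3 CPM in WT cells (edgeR adjusted p = 0.578).

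More of the factors were detected in the RingKO libraries than in the WT libraries. At 1 CPM or more in both libraries of a genotype stood 26 of the 49 factors in RingKO cells (53.1%) and 10 in WT cells (20.4%). Over all symbols of the table these shares were 56.1% in RingKO cells and 52.5% in WT cells. The share of the factors thus stood near that of all symbols in RingKO cells and below it in WT cells. With the threshold at 1 CPM some WT values sat just under it, and without WT replicate 1 the number of factors in WT cells was 17. At 5 CPM or more in both libraries stood 16 of the 49 factors in RingKO cells and 1, Meox1, in WT cells. Of all symbols 49% did so in RingKO cells and 45.3% in WT cells, so at this level the share of the factors was below that of all symbols in both genotypes. The factors together held 290 and 346 CPM in RingKO cells and 47.6 and 90.7 CPM in WT cells.

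**Figure D1:**
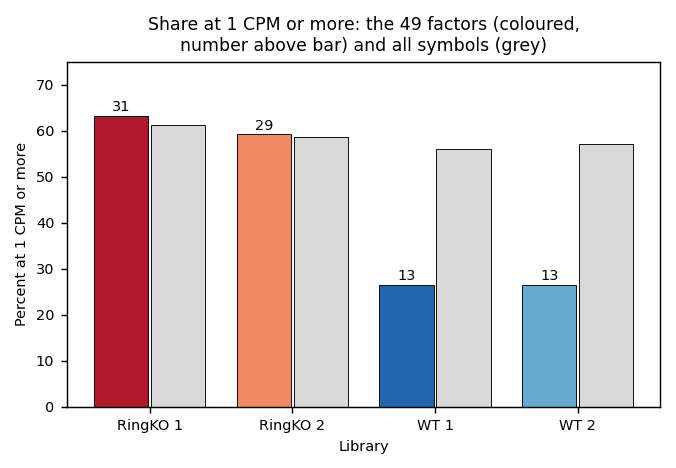
Percent of the 49 factors (coloured bars, with their number) and of all 23377 symbols (grey bars) at 1 CPM or more in each library. The RingKO libraries held 31 and 29 factors at this level and the WT libraries 13 each, while the grey bars lie between 55.9% and 61.3%.

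Both WT libraries had 0 counts for 26 of the 49 factors. Of these, 9 reached 1 CPM in both RingKO libraries (34.6%): Gata2, Foxf2, Foxl2, Nkx2-3, Twist1, Nr2f1, Osr2, Wt1 and Alx1. Of the 7413 symbols with 0 counts in both WT libraries, 2.91% did so, and these were 0.924% of all symbols. At 5 CPM or more in both RingKO libraries stood 6 of the 26 factors, against 1.05% of the symbols at 0 in the WT libraries and 0.334% of all symbols. In the other direction, 6 factors had 0 counts in both RingKO libraries and 0 of them reached 1 CPM in both WT libraries, against 0.331% of the symbols at 0 in RingKO cells (0.0195% at 5 CPM). The RingKO libraries were deeper, and 37 and 41 factors had a count in the RingKO libraries and 17 and 21 in the WT libraries. Of all 23377 symbols, 16130 and 17165 had a count in the RingKO libraries and 14315 and 15186 in the WT libraries. With every library thinned to the shallowest total, the expected numbers of factors were 35.0 and 37.8 in RingKO cells and 17.0 and 20.8 in WT cells. Those of all symbols were 15619 and 15610 in RingKO cells and 14315 and 15089 in WT cells. A factor present in a few cells and a factor present at a low level in every cell cannot be told apart in such bulk libraries, nor can fewer cells of a type and less RNA per cell.

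**Figure D2:**
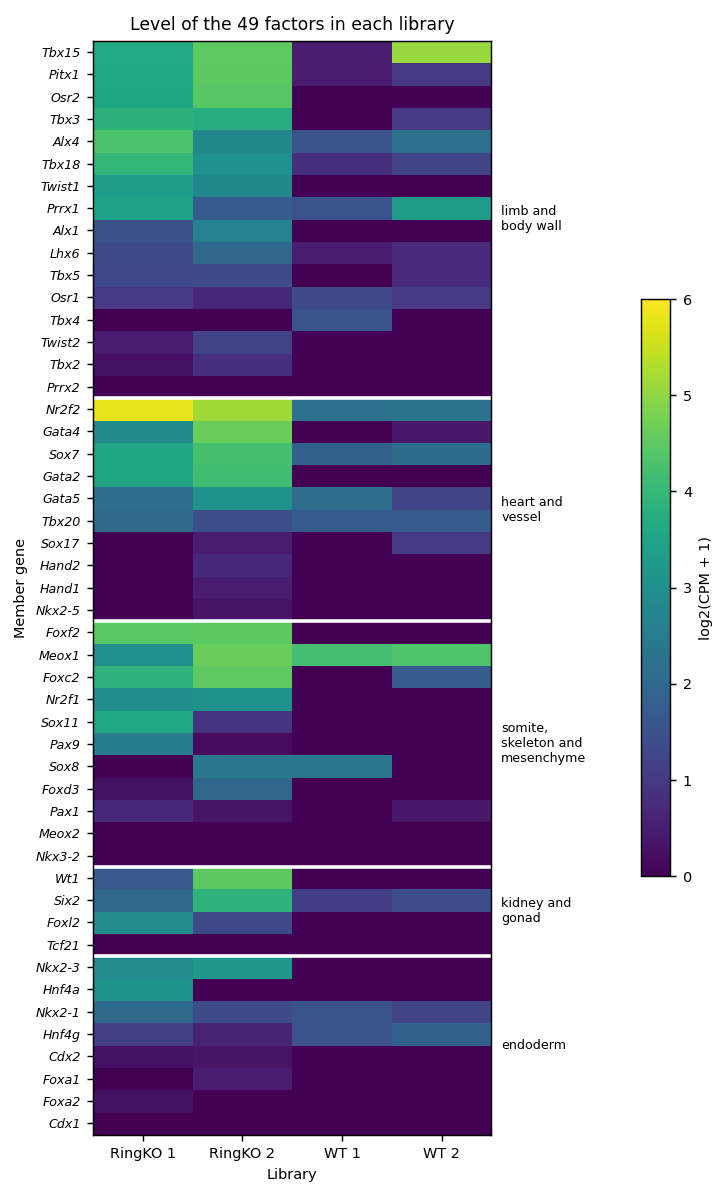
Level of each of the 49 factors, as log2(CPM + 1), in the 2 RingKO and the 2 WT libraries, by the role each factor is known for and, within a role, by the higher of its genotype means. Most rows are dark, that is low, in both WT libraries, with Meox1 in both and Tbx15 in replicate 2 as the brightest exceptions, and 5 rows are at 0 in all 4 libraries.

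Promoters are shown for 5 of the 6 factors at 0 counts in WT cells and above 5 CPM in both RingKO libraries, all but Osr2, so that CpG content can be read beside the levels. For contrast they are shown for 4 of the 5 factors at 0 counts in all 4 libraries, all but Cdx1. Each is the 250 bases before the most upstream start in RefSeq on GRCm38.p6, read 5′ to 3′ on the strand of the gene, with each CpG pair (the letters CG, which read alike on both strands) in capitals.
Foxf2: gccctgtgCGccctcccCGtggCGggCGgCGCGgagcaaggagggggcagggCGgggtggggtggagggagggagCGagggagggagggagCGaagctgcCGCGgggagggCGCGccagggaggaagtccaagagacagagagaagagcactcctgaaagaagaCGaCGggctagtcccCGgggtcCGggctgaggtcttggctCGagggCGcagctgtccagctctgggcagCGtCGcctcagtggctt
Gata2: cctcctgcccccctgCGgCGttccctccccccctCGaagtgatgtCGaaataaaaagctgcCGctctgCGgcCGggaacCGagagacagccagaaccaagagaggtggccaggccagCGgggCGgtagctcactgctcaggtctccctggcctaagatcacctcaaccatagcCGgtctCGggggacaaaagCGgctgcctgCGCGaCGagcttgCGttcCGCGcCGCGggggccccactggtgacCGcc
Nr2f1: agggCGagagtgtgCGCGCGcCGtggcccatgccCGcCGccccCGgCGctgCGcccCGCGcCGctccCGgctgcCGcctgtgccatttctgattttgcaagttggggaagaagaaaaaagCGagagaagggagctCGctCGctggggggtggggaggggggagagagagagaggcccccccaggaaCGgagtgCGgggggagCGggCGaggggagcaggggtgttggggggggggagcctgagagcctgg
Nkx2-3: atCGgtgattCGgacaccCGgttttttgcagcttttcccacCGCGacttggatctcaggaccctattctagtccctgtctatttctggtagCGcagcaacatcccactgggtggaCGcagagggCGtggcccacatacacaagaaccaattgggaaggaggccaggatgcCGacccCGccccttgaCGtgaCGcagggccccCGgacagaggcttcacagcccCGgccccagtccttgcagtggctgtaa
Twist1: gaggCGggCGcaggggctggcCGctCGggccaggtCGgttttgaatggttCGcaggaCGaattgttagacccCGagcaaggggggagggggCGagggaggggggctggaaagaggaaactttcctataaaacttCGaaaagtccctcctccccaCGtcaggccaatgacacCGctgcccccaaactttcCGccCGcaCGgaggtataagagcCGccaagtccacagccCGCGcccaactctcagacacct
Prrx2: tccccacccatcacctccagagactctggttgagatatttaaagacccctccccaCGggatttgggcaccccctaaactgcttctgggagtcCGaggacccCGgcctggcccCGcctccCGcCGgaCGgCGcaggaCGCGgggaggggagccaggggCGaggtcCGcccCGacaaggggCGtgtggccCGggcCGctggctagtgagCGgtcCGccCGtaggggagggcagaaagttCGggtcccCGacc
Tcf21: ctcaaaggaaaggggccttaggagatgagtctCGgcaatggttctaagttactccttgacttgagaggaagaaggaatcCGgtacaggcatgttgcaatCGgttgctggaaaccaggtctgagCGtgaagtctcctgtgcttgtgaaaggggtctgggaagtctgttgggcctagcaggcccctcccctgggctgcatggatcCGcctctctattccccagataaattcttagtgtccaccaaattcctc
Nkx3-2: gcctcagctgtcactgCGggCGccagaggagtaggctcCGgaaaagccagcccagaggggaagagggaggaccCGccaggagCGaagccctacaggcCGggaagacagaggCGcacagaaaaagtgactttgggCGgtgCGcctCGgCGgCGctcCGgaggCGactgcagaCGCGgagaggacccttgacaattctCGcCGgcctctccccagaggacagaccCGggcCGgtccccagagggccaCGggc
Meox2: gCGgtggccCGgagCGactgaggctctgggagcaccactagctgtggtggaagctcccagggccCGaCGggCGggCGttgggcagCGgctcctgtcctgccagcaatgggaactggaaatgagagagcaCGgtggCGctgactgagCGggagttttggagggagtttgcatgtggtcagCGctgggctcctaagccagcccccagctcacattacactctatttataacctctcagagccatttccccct
Of the factors detected in RingKO cells, the window of Foxf2 at chr13:31625566-31625815 on the plus strand held 21 pairs and that of Gata2 at chr6:88193641-88193890 on the plus strand held 22 pairs. The window of Nr2f1 at chr13:78198874-78199123 on the minus strand held 22 pairs. The window of Nkx2-3 at chr19:43612075-43612324 on the plus strand held 14 pairs and that of Twist1 at chr12:33957421-33957670 on the plus strand held 18 pairs. Of the factors at 0 counts throughout, the window of Prrx2 at chr2:30845117-30845366 on the plus strand held 21 pairs and that of Tcf21 at chr10:22820144-22820393 on the minus strand held 5 pairs. The window of Nkx3-2 at chr5:41764221-41764470 on the minus strand held 21 pairs and that of Meox2 at chr12:37108290-37108539 on the plus strand held 12 pairs. The median over 32851 starts was 6 pairs. The counts of both sets overlapped, since Prrx2 and Nkx3-2 held as many pairs as Foxf2. A promoter was matched for 31 of the 49 factors, under the 80% needed, so a summary of CpG content over all factors would be void and is not given.

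No factor passed the test across all genes. Counts were compared with edgeR's quasi-likelihood test on 13134 genes, with Benjamini-Hochberg adjustment over all of them. Of the 49 factors, 20 had enough counts to be tested, and 0 had an adjusted p under 0.05 in either direction. Of all genes tested 0.0609% did, since 0.0533% were called higher and 0.00761% lower. The lowest adjusted p among the factors was 0.124. Without adjustment, 12 factors were higher and 0 lower in RingKO cells at p under 0.05, where 8.47% of all genes tested were higher and 8.16% lower. Factors near 0 in WT cells passed the count filter through the RingKO libraries alone, so they had to be higher, and no support is read from these 12 of 20, from the order of the libraries or from the median. Every RingKO library lay above every WT library for 16 tested factors and below for 0 (24.8% and 22.3% of all genes tested). The median log2 fold change of RingKO over WT was 3.69 over the 20 tested factors, or 3.62 with factors at 0 in WT cells set to their bounds, and 0.03 over all genes tested. Single libraries moved these values: without RingKO replicate 2, 7 factors were higher at an unadjusted p under 0.05, without WT replicate 2 the median was 6.39, and without WT replicate 1 the median with bounds was 2.12.

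The number of factors called depended on the tool. DESeq2 gave 31 factors an adjusted p and called 13 higher and 0 lower, where it called 6.21% of all genes higher and 6.14% lower. These 13 were the 12 that had an unadjusted p under 0.05 in edgeR, together with Wt1. Limma-voom called 0 factors, with 10 higher at an unadjusted p under 0.05. Of the 49, the authors' deposited table marked 16 higher and 0 lower, and it marked 4.56% of all symbols higher and 0.8% lower. That table and DESeq2 rest on the same counts, so the shared calls are no independent check. Factors at 0 counts in WT cells could not be called lower by either, so no support is read from the direction of these calls.

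Limb and body wall factors were the group with the most members: 11 of 16 reached 1 CPM in both RingKO libraries and 2 of 16 in both WT libraries. Pitx1, a paired-type homeobox factor that sets hindlimb identity, stood at 10.9 and 21.6 CPM in RingKO cells, against 0.378 and 0.997 CPM in WT cells. Its log2 fold change was 4.49 ± 1.28 (SE; edgeR adjusted p = 0.156), and the genotypes did not overlap. Osr2, a zinc finger factor of palate, limb joints and kidney, had 10.5 and 20.8 CPM in RingKO cells and 0 counts in both WT libraries. Set against a floor of 3 counts over both WT libraries, which is used for every bound here, Osr2 was at least 29.5-fold higher in RingKO cells (edgeR adjusted p = 0.147). With either WT library left out the floor rests on 1 library, which lowers every such bound, that of Osr2 to 15.8 or 13.7. PCR makes several copies of 1 molecule, and neither these floors nor the counting intervals account for that.

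Of the T-box factors, Tbx3, which patterns limb, heart and mammary gland, had 13.7 and 12.4 CPM in RingKO cells and 0 and 0.997 CPM in WT cells. Its 3 WT counts all came from replicate 2, and the ratio was 24.3 with a 95% counting interval of 8.17 to 119 (edgeR adjusted p = 0.188). Tbx18, a factor of limb, somite and epicardium that is also known from the dermal papilla, had 14.7 and 7.19 CPM in RingKO cells and 0.756 and 1.33 CPM in WT cells. The log2 fold change of Tbx18 was 3.35 ± 1.27 (edgeR adjusted p = 0.237), without overlap between genotypes. Tbx15, which acts in skeleton, dermis and muscle, had 11.7 and 21.8 CPM in RingKO cells and 0.378 and 32.6 CPM in WT cells. Its groups overlapped, because the WT libraries lay on either side of both RingKO libraries, and its log2 fold change was 0.02 ± 1.34 (edgeR adjusted p = 0.997). It was -0.95 without WT replicate 1, and without WT replicate 2, with 1 WT count left, the ratio was 47.0 (counting interval 8.35 to 1863).

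Twist1, a basic helix-loop-helix factor of mesoderm and cranial mesenchyme, had 9.25 and 5.95 CPM in RingKO cells and 0 counts in WT cells, at least 14.3-fold higher (edgeR adjusted p = 0.154). Its paralogue Twist2, a dermal factor singled out after its values were seen, had 0.402 and 1.36 CPM in RingKO cells and 0 counts in WT cells, too few to be tested. Alx4, a homeobox factor of skull and limb, stood at 18.7 and 5.70 CPM in RingKO cells and 1.89 and 3.66 CPM in WT cells. Its log2 fold change was 2.12 ± 1.19 (edgeR adjusted p = 0.423). Prrx1, a homeobox factor of limb bud mesenchyme and fibroblasts, had 10.1 and 2.36 CPM in RingKO cells and 1.89 and 8.97 CPM in WT cells, so that each genotype had 1 high and 1 low library (edgeR adjusted p = 0.977). The related Prrx2 had 0 counts in all 4 libraries. The other limb and body wall factors, Alx1, Lhx6, Tbx5, Osr1, Tbx2 and Tbx4, had means of at most 3.51 CPM in RingKO cells and 1.25 CPM in WT cells. Among these, Tbx4, a hindlimb and lung factor singled out after its values were seen, was the only one with counts in a WT library (5 in replicate 1) and 0 in both RingKO libraries.

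Of the 10 heart and vessel factors, 6 reached 1 CPM in both RingKO libraries and 4 in both WT libraries. Nr2f2, a nuclear receptor that specifies veins and atria and also acts in mesenchyme, stood at 53.5 and 34.5 CPM in RingKO cells, against 3.78 and 3.99 CPM in WT cells. Its log2 fold change was 3.49 ± 0.69 (edgeR adjusted p = 0.124), with the smallest standard error among the 20 tested factors. Both RingKO libraries were far above both WT libraries, and the WT pair differed little. Gata2, a GATA factor of blood and endothelium, had 10.5 and 17.0 CPM in RingKO cells and 0 counts in WT cells, at least 25.9-fold higher (edgeR adjusted p = 0.147). Gata4, a factor of heart, gonad and foregut, had 6.23 and 24.3 CPM in RingKO cells and 0 and 0.332 CPM in WT cells. With 1 WT count its ratio was 98.4, with a counting interval that ran from 17.5 to 3904 (edgeR adjusted p = 0.149). Without RingKO replicate 2 the ratio was 34.9, and without WT replicate 2 Gata4 was at least 13.4-fold higher.

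Sox7, an endothelial SOX factor, had 10.7 and 18.1 CPM in RingKO cells and 2.65 and 3.32 CPM in WT cells, a log2 fold change of 2.26 ± 1.07 (edgeR adjusted p = 0.342). Gata5, a heart and endoderm factor, had 3.42 and 7.44 CPM in RingKO cells and 3.40 and 1.33 CPM in WT cells. RingKO replicate 1 was thus level with WT replicate 1, and the difference was small against the spread (edgeR adjusted p = 0.740). The cardiac factors Nkx2-5, Hand1 and Hand2 had 0 counts in 3 libraries and between 2 and 5 counts in RingKO replicate 2. Tbx20, a heart chamber factor, was at 3.22 and 1.74 CPM in RingKO cells and 2.27 and 2.33 CPM in WT cells. Sox17, a factor of endoderm and arteries, had 3 counts in 1 library of each genotype and 0 in the others.

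Of the 11 somite, skeleton and mesenchyme factors, 4 reached 1 CPM in both RingKO libraries and 1 in both WT libraries. Foxf2, a forkhead factor of mesenchyme and pericytes, had 21.1 and 21.3 CPM in RingKO cells and 0 counts in WT cells, at least 40.0-fold higher (edgeR adjusted p = 0.124). The RingKO libraries agreed within counting error for this gene, whose promoter is among those printed, with a ratio of replicate 2 over replicate 1 of 1.01 (counting interval 0.788 to 1.30). Foxc2, a forkhead factor of somites and lymphatic vessels, had 14.1 and 21.9 CPM in RingKO cells and 0 and 2.33 CPM in WT cells. Its log2 fold change was 3.89 ± 1.46 (edgeR adjusted p = 0.234), and all 7 of its WT counts came from replicate 2. Nr2f1, a nuclear receptor of neural crest and mesenchyme, had 6.84 and 7.44 CPM in RingKO cells and 0 counts in WT cells, at least 13.5-fold higher (edgeR adjusted p = 0.155). A long noncoding gene that overlaps Nr2f1 in RefSeq, A830082K12Rik, had 23 and 32 counts in RingKO cells and 11 and 8 in WT cells, and without stated use of strand reads in the overlap cannot be told apart.

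Meox1, a homeobox factor of somites, was the only factor above 5 CPM in both WT libraries, with 7.24 and 23.7 CPM in RingKO cells and 17.4 and 19.3 CPM in WT cells. Its WT values lay between those of the RingKO libraries, with a log2 fold change of -0.24 ± 0.84 (edgeR adjusted p = 0.945), the only negative one among the 20 tested factors. Its paralogue Meox2 had 0 counts in all 4 libraries, as had the cartilage factor Nkx3-2. Sox11, a factor of immature neurons and mesenchyme, had 11.1 and 0.868 CPM in RingKO cells and 0 counts in WT cells, too uneven to pass the count filter. At least 11.2-fold higher with both RingKO libraries, it was at least 1.64-fold higher without RingKO replicate 1. Sox8, a factor of neural crest and testis singled out after its values were seen, had 0 and 4.21 CPM in RingKO cells and 4.16 and 0 CPM in WT cells, so that each genotype had 1 library without a count. The remaining members, Sox8 among them with Foxd3, Pax1 and Pax9, had means of at most 2.47 CPM in RingKO cells and 2.08 CPM in WT cells.

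Of the 4 kidney and gonad factors, 3 reached 1 CPM in both RingKO libraries and 1 in both WT libraries. Wt1, a zinc finger factor of podocytes, gonad and mesothelium, had 2.21 and 21.6 CPM in RingKO cells and 0 counts in WT cells. It was at least 22.4-fold higher in RingKO cells, or at least 4.13-fold without RingKO replicate 2. Six2, a homeobox factor that maintains nephron progenitors, had 3.02 and 13.9 CPM in RingKO cells and 1.13 and 1.66 CPM in WT cells, a log2 fold change of 2.57 ± 1.34 (edgeR adjusted p = 0.387). Foxl2, an ovary factor singled out after its values were seen, had 6.43 and 1.49 CPM in RingKO cells and 0 counts in WT cells, at least 7.46-fold higher, or at least 2.80-fold without RingKO replicate 1. Tcf21, a factor of kidney and visceral mesenchyme, had 0 counts in all 4 libraries.

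Endoderm factors were the role with the same number detected in both genotypes: 2 of 8 reached 1 CPM in both RingKO libraries and 2 of 8 in both WT libraries. They were not the same factors, with Nkx2-3 and Nkx2-1 in RingKO cells and Nkx2-1 and Hnf4g in WT cells. Nkx2-3 was placed in this role although it is a homeobox factor of gut mesenchyme and spleen. It had 6.43 and 8.18 CPM in RingKO cells and 0 counts in WT cells, at least 13.8-fold higher (edgeR adjusted p = 0.154). It was the only one of the 8 with enough counts to be tested. Hnf4a, a nuclear receptor of liver and gut singled out after its values were seen, had 7.44 CPM (37 counts) in RingKO replicate 1 and 0 counts in the other 3 libraries. Nkx2-1, a lung and thyroid factor, was at 3.22 and 1.61 CPM in RingKO cells and 1.89 and 1.33 CPM in WT cells. The intestinal receptor Hnf4g was at 1.21 and 0.496 CPM in RingKO cells and 1.89 and 2.66 CPM in WT cells. The pioneer factors Foxa1 and Foxa2 and the intestinal factors Cdx1 and Cdx2 had at most 3 counts in any library.

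**Figure D3:**
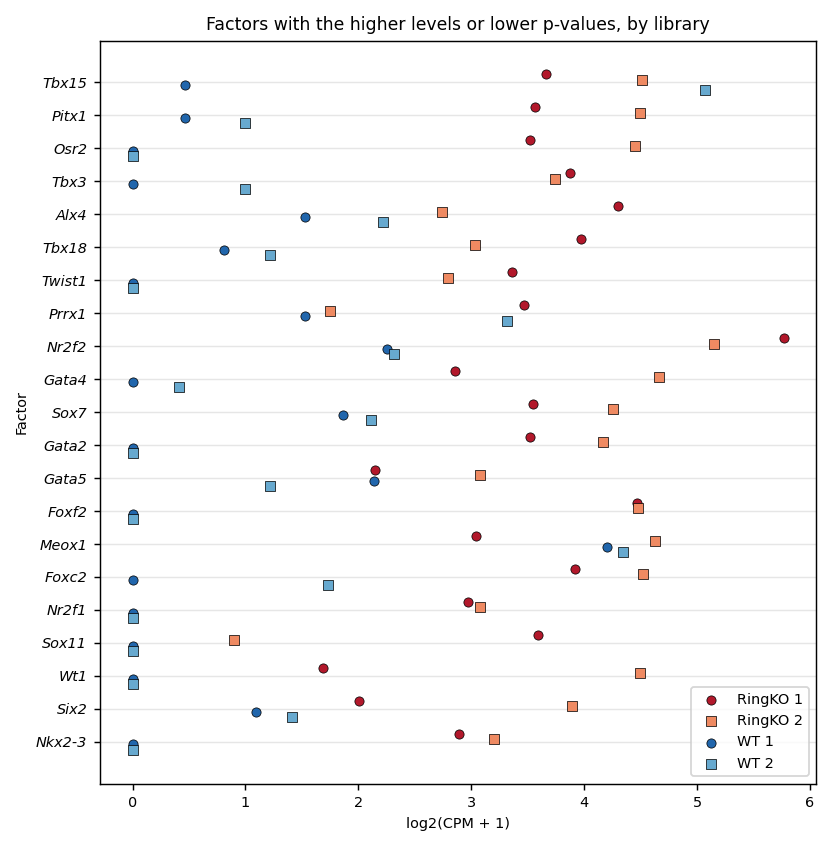
Level, as log2(CPM + 1), of the 21 factors with an unadjusted edgeR p under 0.05 or a mean of at least 5 CPM in a genotype, with 1 point per library and circles for replicate 1 and squares for replicate 2. Foxf2, Osr2 and Gata2 lie at 0 in both WT libraries, while Tbx15, Prrx1 and Meox1 have overlapping genotypes.

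The RingKO libraries often differed from each other. Of the 43 factors with a count in RingKO cells, 23 differed between the RingKO libraries beyond the 95% counting interval of their ratio (53.5%), 14 higher in replicate 2 and 9 higher in replicate 1. Of all symbols with a count in RingKO cells, 55.6% did so, which is near that share. Such a share depends on the number of counts as well as on the spread. A smaller share of the factors than of all symbols reached 5 CPM, so the spread of the factors cannot be set against that of other genes in this way. Wt1 was 9.75 times as high in replicate 2 as in replicate 1 (counting interval 5.32 to 19.9), and Gata4 3.90 times (2.66 to 5.89). In the other direction, Sox11 was 12.7 times as high in replicate 1 as in replicate 2 (5.79 to 33.2), and Alx4 3.28 times (2.28 to 4.78). The pair of RingKO libraries therefore held partly different factors at high levels, with Foxf2, Nr2f1, Nkx2-3 and Tbx3 among those that agreed within counting error.

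**Figure D4:**
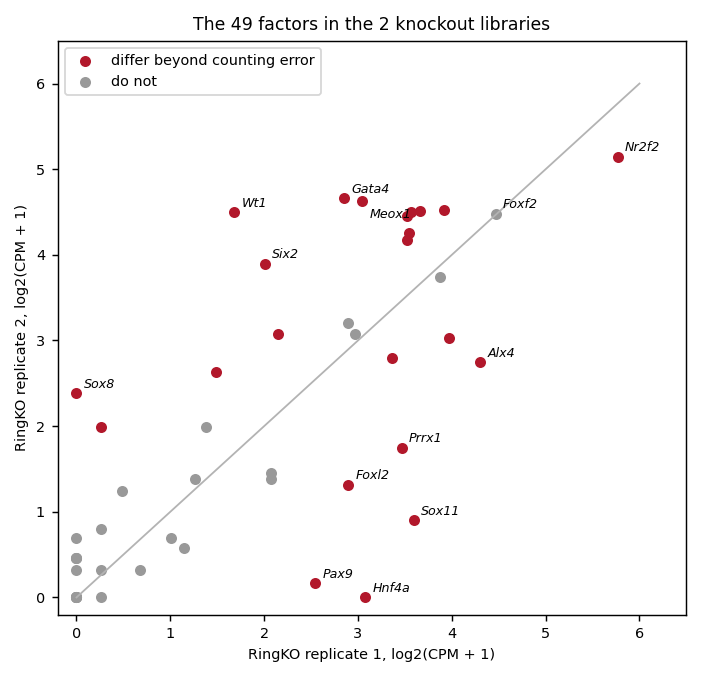
Each of the 49 factors in RingKO replicate 1 (x axis) and RingKO replicate 2 (y axis), both as log2(CPM + 1), with the line of equal levels. Red points are the 23 factors whose ratio between these libraries has a 95% counting interval that leaves out 1, with Wt1 far above the line and Sox11 and Hnf4a far below it.

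Several of these factors are known from dermal fibroblasts, vessels, muscle or blood cells, so markers of such cells were read in the same libraries. The 12 fibroblast and dermal papilla markers summed to 395 and 296 CPM in RingKO cells and 655 and 789 CPM in WT cells. Of the 9 tested, 3 were higher and 4 lower in RingKO cells at an unadjusted p under 0.05, and 0 passed adjustment. Of all genes tested 8.47% were higher and 8.16% lower at that p. Dcn, a matrix proteoglycan singled out like Crabp1 after its values were seen, made up most of that sum, with 271 and 158 CPM in RingKO cells and 591 and 428 CPM in WT cells. Crabp1, a retinoic acid binding protein of the dermal papilla, had 34.6 and 27.5 CPM in RingKO cells and 0 counts in WT cells. Col1a1 and Alpl, singled out in the same way, also differed. Col1a1 had 13.3 and 17.7 CPM in RingKO cells and 14.4 and 113 CPM in WT cells. Alpl had 37.0 and 56.3 CPM in RingKO cells and 14.7 and 1.66 CPM in WT cells. The sum thus followed Dcn, and no direction is read from it for the list.

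The 10 endothelial markers summed to 79.0 and 49.5 CPM in RingKO cells and 75.6 and 121 CPM in WT cells. Most of this was Egfl7, while Cdh5, which defines endothelium, had at most 0.124 CPM in the RingKO libraries and 0 and 8.97 CPM in the WT libraries. Emcn was at 0 in all 4 libraries, and Cldn5 and Tie1 at 0 in both RingKO libraries. Others on the list had RingKO counts: Plvap was at 5.63 and 5.58 CPM in RingKO cells and 2.27 and 7.98 CPM in WT cells. Tek was at 2.01 and 0.248 CPM in RingKO cells and 13.2 and 4.32 CPM in WT cells. Mast cell markers, relevant to Gata2, summed to 0.402 and 0.124 CPM in RingKO cells and were at 0 in both WT libraries. The 6 mural markers summed to 423 and 425 CPM in RingKO cells and 403 and 422 CPM in WT cells, but single members went opposite ways. Mcam was at 96.5 and 67.7 CPM in RingKO cells and 14.4 and 9.64 CPM in WT cells (edgeR adjusted p = 0.0835). Acta2 was at 9.85 and 46.5 CPM in RingKO cells and 157 and 137 CPM in WT cells (edgeR adjusted p = 0.149), and Rgs5 was at 0 in both RingKO libraries and at 4.16 and 2.99 CPM in WT cells. These endothelial, mural and follicle stem cell genes were singled out after their values were seen.

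Skeletal muscle markers followed single libraries, with sums of 350 and 57.4 CPM in RingKO cells and 5.29 and 960 CPM in WT cells. Tbx15 and Prrx1 were also higher in WT replicate 2 than in WT replicate 1. Some markers on other lists, singled out after their values were seen, were so too. The fibroblast collagen Col1a2 had 11.3 and 139 CPM in the WT libraries and the adipocyte gene Fabp4 7.56 and 72.8 CPM, while Dcn was lower in WT replicate 2. The part of muscle cells, fibroblasts or other cells in this was not tested. Leukocyte markers summed to 694 and 315 CPM in RingKO cells and 147 and 136 CPM in WT cells. Of 8 tested, 5 were higher and 0 lower at an unadjusted p under 0.05, against 8.47% and 8.16% of all genes tested. Cd207 of Langerhans cells was at 0 in all 4 libraries and Cd3e of T cells at 0 in both RingKO libraries. The sum of the leukocyte markers was thus higher in both RingKO libraries, as was that of the factors. Between the RingKO libraries the leukocyte sum was higher in replicate 1, whereas the factors held 290 CPM in replicate 1 and 346 CPM in replicate 2. The part of leukocytes in the levels of the factors was not tested. Melanocyte and Schwann markers summed to 31.6 and 44.1 CPM in RingKO cells and 51.0 and 79.8 CPM in WT cells, and adipocyte markers to 3.82 and 1.98 CPM in RingKO cells and 7.56 and 75.8 CPM in WT cells.

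**Figure D5:**
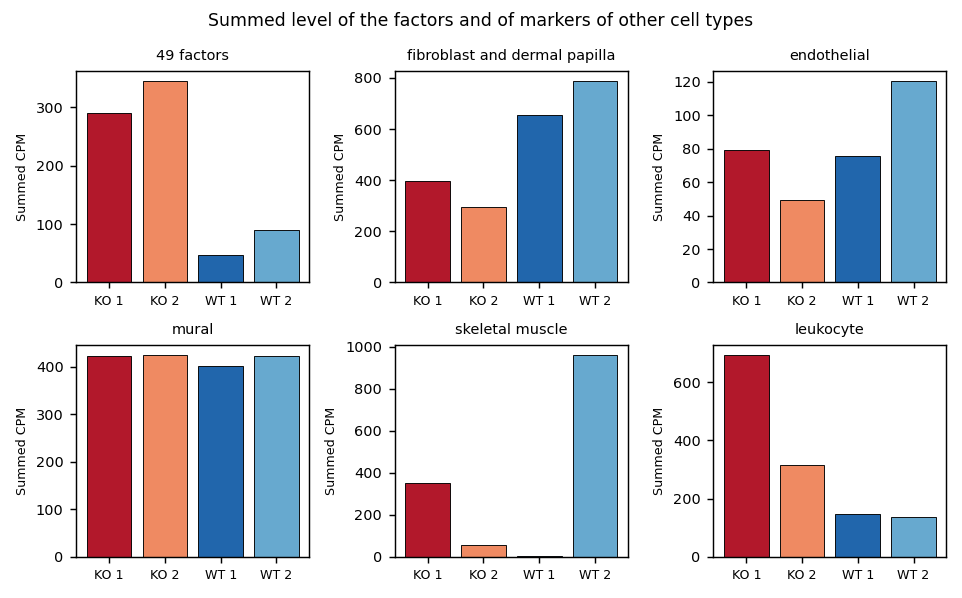
Summed CPM per library of the 49 factors and of marker lists for other cell types, with the RingKO libraries (KO) in red and the WT libraries in blue and a separate axis from 0 in each panel. The factors and the leukocyte markers are higher in both RingKO libraries, the fibroblast sum, most of it Dcn, is lower in both, and the muscle markers are highest in WT replicate 2.

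Paralogues of the factors from the same families were read beside them. Of 45 such genes, 21 reached 1 CPM in both RingKO libraries and 9 in both WT libraries, and of 18 tested 0 passed adjustment, with 9 higher and 1 lower at an unadjusted p under 0.05. Of all genes tested 8.47% were higher and 8.16% lower at that p, and paralogues at or near 0 in WT cells passed the count filter through the RingKO libraries alone. Pax3, a factor of neural crest and muscle precursors, had 21.1 and 33.1 CPM in RingKO cells and 0 and 1.33 CPM in WT cells, a log2 fold change of 5.25 ± 1.31 (edgeR adjusted p = 0.149). Sox9, which the follicle stem cell itself uses, had 171 and 156 CPM in RingKO cells and 49.2 and 94.7 CPM in WT cells, a log2 fold change of 1.18 ± 0.32 (edgeR adjusted p = 0.149).

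A further list held 28 genes that act with these factors in germ layers and limb buds: secreted signals and antagonists, enzymes and transcription factors. Of these, 12 were tested, 0 passed adjustment, and 6 were higher and 1 lower at an unadjusted p under 0.05. The 6 were the ligands Bmp4, Bmp7 and Tgfb2, the enzyme Aldh1a2 and the homeobox factors En1 and Shox2. Of all genes tested 8.47% were higher and 8.16% lower at that p. Listed genes at or near 0 in WT cells passed the count filter through the RingKO libraries alone. The lower one was Shh, singled out after its values were seen, with 9.85 and 2.11 CPM in RingKO cells and 52.2 and 40.2 CPM in WT cells (edgeR adjusted p = 0.152). Aldh1a2, the enzyme that makes retinoic acid in mesoderm, had 44.0 and 24.3 CPM in RingKO cells and 2.65 and 0.332 CPM in WT cells (log2 fold change 4.52 ± 1.07, edgeR adjusted p = 0.147). Bmp4, a ligand of mesoderm and dermis, had 48.1 and 42.3 CPM in RingKO cells and 9.45 and 6.31 CPM in WT cells (log2 fold change 2.52 ± 0.61, edgeR adjusted p = 0.149). Bmp7, a related ligand, had 95.7 and 121 CPM in RingKO cells and 50.7 and 52.2 CPM in WT cells (log2 fold change 1.07 ± 0.28, edgeR adjusted p = 0.149).

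Few genes that make the products of the differentiated organs reached 1 CPM. Of 52 product genes of heart, cartilage and bone, liver and gut, and lung and thyroid, 9 reached 1 CPM in both RingKO libraries and 3 in both WT libraries, where 56.1% of all symbols did in RingKO cells and 52.5% in WT cells. Both WT libraries had 0 counts for 26 of the 52, and 0 of these 26 reached 1 CPM in both RingKO libraries, which is near the 2.91% of all symbols at 0 in WT cells. Col2a1, the collagen of cartilage, had 12.3 and 13.4 CPM in RingKO cells and 1.13 and 0 CPM in WT cells, 24.4 times as much with a counting interval of 8.22 to 120 (edgeR adjusted p = 0.201). Runx2, a bone factor on the same list, had 13.9 and 46.4 CPM in RingKO cells and 16.6 and 4.65 CPM in WT cells (edgeR adjusted p = 0.456). The cardiac troponin Tnni3 had 2.81 and 3.72 CPM in RingKO cells and 0 and 0.665 CPM in WT cells, and Tnni1 had 3.82 and 8.31 CPM in RingKO cells and 0 and 12.0 CPM in WT cells. Each of the intestinal genes Fabp2 and Muc2 was high in 1 library of each genotype and at 0.402 CPM or less in the other, as Apoa1 was with at most 1.01 CPM. Sftpc, a lung surfactant gene, had 4.22 and 6.20 CPM in RingKO cells and 3.40 and 0 CPM in WT cells.

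Some factors are next to each other in the genome, and neighbours did not always vary alike between libraries. In the order of RefSeq protein-coding genes of GRCm38.p6, Tbx3 and Tbx5 lie side by side on chromosome 5, yet Tbx5, a forelimb and heart factor singled out here after its values were seen, had 1.41 and 1.61 CPM in RingKO cells and 0 and 0.665 CPM in WT cells. Tbx2 and Tbx4, neighbours on chromosome 11, and Foxa2 and Pax1, neighbours on chromosome 2, were below 1 CPM in both RingKO libraries. Pax9 and Nkx2-1, with 1 gene between them on chromosome 12, had different patterns, since Pax9, singled out in the same way, had 24 counts in RingKO replicate 1, 1 in RingKO replicate 2 and 0 in both WT libraries.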

How the data were processed

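SMART-seq2 RNA-seq of 4 libraries was analysed from the deposited table of whole-number counts per gene symbol. The submitters' processing notes name TopHat2 2.1.1, Bowtie 1.2.2, HTSeq 0.7.2, DESeq2 and the mm9 build; no source used here gives the annotation or any use of strand. The authors' deposited comparison table, used only for its marks, holds mean normalised signal per genotype, log2 fold changes, their standard errors (handled as a score column) and p-values; marked genes differ by 1 or more on the log2 scale and have adjusted p-values up to 0.0998. Ring1b ChIP peaks were not used here, since no gene annotation of their build was used.

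Counts were fitted with edgeR 4.0.16 (filterByExpr, TMM, robust quasi-likelihood test, Benjamini-Hochberg threshold 0.05) in R 4.3.3, after a test on simulated data. Alternatives were DESeq2 1.42.0 with its default filtering, limma-voom (limma 3.58.1), other scaling and filters, each library left out, and a replicate block. With 2 libraries against 2, an exact permutation test cannot give a p under 0.333, so none was used. Replicates of a genotype differed beyond counting noise (chi-square per degree of freedom 25.2 in RingKO cells and 15.1 in WT cells), so none was merged. Ratios with 1 to 3 counts in a genotype have exact 95% counting intervals, and a genotype at 0 is set to a floor of 3 counts. Promoters came from RefSeq. Values in every library are given for members with an unadjusted edgeR p under 0.05 or a mean of at least 5 CPM in a genotype, and for the 3 tested genes of lowest p of each related list; the other members are given by range and count. A related gene that this rule names is not reported here. The members and lists were chosen with earlier results of these data known.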

Additional observations from a re-analysis of the deposited data

How the results depend on the processing

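The count of factors called higher was 0 in the edgeR test and 13 with DESeq2, 6 without a low-count filter and 4 with the replicate block; the cause was not tested. It was 0 with limma-voom, RLE size factors, a filter of 1 CPM in 2 libraries and each library left out, and 0 factors were called lower under any of these. Over all genes the calls numbered 8 in the edgeR test, 1792 with DESeq2, 802 without a filter, 416 with the replicate block, 1 with the 1 CPM filter, 0 with limma-voom and 0 to 60 with a library left out. The median log2 fold change was 2.44 with DESeq2 (2.19 with bounds), where more factors were tested.

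Leaving out 1 library gave 7 to 13 factors higher at an unadjusted p under 0.05, 16 to 18 with every RingKO library above every WT library and 0 to 1 below. The median log2 fold change ranged 4.00 to 6.39, or 2.12 to 3.63 with bounds. Factors at 1 CPM in WT cells numbered 10 to 17, in RingKO cells 26 to 30, and those at 0 WT counts that reached 1 CPM in RingKO cells 9 to 13. At 5 CPM in place of 1 CPM the numbers were 16 in RingKO cells and 1 in WT cells (49% and 45.3% of all symbols). Over all factors with a count, 27 had every RingKO library above and 1 below, against 22.4% and 17% of all symbols with a count. A factor at 0 in WT cells lies above with as little as 1 count in each RingKO library, so no support is read from this.

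Log2 fold changes near 0 turned round. That of Sox8 was -0.27 with the replicate block and -0.96 without WT replicate 2. Without WT replicate 1 the WT library left has 0 Sox8 counts, so its fitted value of 6.54 is no measure and Sox8 was at least 2.14-fold higher; without RingKO replicate 2 it was not tested and was at least 3.51-fold lower. With a library left out, Tbx15 ranged -0.95 to 5.37 (below 0 without WT replicate 1, and at -0.51 without RingKO replicate 2). Meox1 ranged -1.35 to 0.37 (above 0 without RingKO replicate 1). Prrx1 ranged -1.20 to 1.67 (below 0 without RingKO replicate 1, and at -0.54 without WT replicate 1) and was -0.10 with limma-voom.

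Same-numbered libraries deviated in opposite directions (r = -0.14 over 13134 genes, which are not independent), so the numbers were not taken to pair them. With the numbers crossed, an alternative chosen after seeing the data, 0 factors and 8 genes were called. The WT depth limits detection: 3 counts correspond to 1.13 and 0.997 CPM there and to 0.603 and 0.372 CPM in RingKO cells.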
